A study of Mus musculus with 8 samples.

Results

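A set of 9 genes that control whether the liver makes or burns glucose was followed: Pck1, G6pc, Fbp1, Pcx and Ppargc1a on the side of gluconeogenesis, Gckr, Pklr and Pfkfb1 on the side of glycolysis, and the glucose transporter Slc2a2. They were chosen by gene symbol from the table of liver counts, which held 24940 genes. All 9 were found, each as 1 row, and all 9 were among the 12340 genes that passed the expression filter. The livers came from C57BL/6 males of 2 genotypes with 4 livers each. The FxrKO livers carried floxed Bcl6 alleles without Cre and were homozygous for the whole-body loss of FXR (Nr1h4), the bile acid receptor. The Bcl6LKOFxrKO livers carried the same alleles plus Alb-Cre, whose albumin promoter directs the deletion of the repressor Bcl6 to hepatocytes. Both groups are therefore labelled as lacking Fxr, every difference below is between livers with and without the Bcl6 deletion on this background, and livers with intact Fxr were not analysed here. The labels give neither the age of the mice nor the hour of sampling, and the methods allow fed mice or mice fasted for 4 hours unless stated otherwise, without saying which applies to these livers. Nothing in the labels names litters or cages, so whether livers shared them could not be checked. The p-values set the difference between genotypes against the spread between these livers, taken as independent.

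Gluconeogenesis turns pyruvate, lactate, glycerol and amino acid carbon into glucose, and in the fasted animal the liver is its main site. It runs the glycolytic enzymes in reverse except at the steps that are irreversible, where its own enzymes (pyruvate carboxylase, PEPCK, fructose-1,6-bisphosphatase and glucose-6-phosphatase) bypass the one-way steps of glycolysis, among them pyruvate kinase and phosphofructokinase. Glucagon, through cAMP, and glucocorticoids raise transcription of Pck1 and G6pc, insulin lowers it through FOXO1, and glucose raises Pklr through the factor ChREBP (Mlxipl).

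Each library held between 7586241 and 11839503 counts on genes. Bcl6 was at 21.2 to 65.2 CPM in FxrKO livers and at 4.61 to 11.9 CPM in Bcl6LKOFxrKO livers (CPM are counts scaled to a common library size with TMM, a method that corrects for a few genes taking a large share of a library), so the targeted gene followed the labels. Nr1h4 counts remained in both groups, at 60.0 ± 2.46 CPM (SD, n = 4) in FxrKO and 43.5 ± 3.69 CPM (SD, n = 4) in Bcl6LKOFxrKO livers, and were lower in the latter without overlap (log2 fold change -0.46, edgeR adjusted p = 0.0050). Gene totals do not show the deleted part, so they do not check the loss of Fxr. Alb alone took 4.04% to 5.16% of counts in FxrKO livers and 11.9% to 13.2% in Bcl6LKOFxrKO livers, and the choice of scaling mattered: under total counts alone the median gene moved by -0.16 on the log2 scale. With TMM, edgeR's quasi-likelihood test (Benjamini-Hochberg adjusted p under 0.05 over all tested genes, the rule for every call below) called 1994 genes higher and 1665 lower in Bcl6LKOFxrKO livers, against 1404 and 2949 with total counts alone.

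Of the 9 genes, 4 were lower in Bcl6LKOFxrKO livers (Pck1, Pklr, Pfkfb1 and Slc2a2) and 0 were higher. The number higher was also 0 at an unadjusted edgeR p under 0.05, with DESeq2 and with limma voom. Over all tested genes, 13.5% were called lower and 16.2% higher, the shares beside which the list counts below are to be read. The 4 genes that fell lie on both sides of the pathway: Pck1 makes glucose precursors from oxaloacetate, Pklr and Pfkfb1 belong to glycolysis and its control, and Slc2a2 carries glucose across the hepatocyte membrane in either direction. G6pc, Fbp1, Pcx, Ppargc1a and Gckr were not called. The median log2 fold change (Bcl6LKOFxrKO over FxrKO) of the 9 genes was -0.70, beside 0.010 over all tested genes. For 3 of the 9 (Pck1, Pklr and Pfkfb1) no Bcl6LKOFxrKO liver reached the lowest FxrKO liver, and over all tested genes the groups were likewise separate, in either direction, for 31.3%. In bulk liver RNA, fewer cells of a type and less RNA per cell cannot be told apart.

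The genes differed widely in abundance. Per length (RPKM, the CPM divided by the transcript length in kilobases), Pck1 was the most abundant of the 9 in FxrKO livers at 1004 ± 323 RPKM (SD, n = 4), followed by Fbp1 at 692 ± 56.1 and Pcx at 182 ± 6.28. Pck1 and Fbp1 overlapped between livers, from 545 to 1291 RPKM against 617 to 748, so their order was not set beyond the spread. Pklr (137 ± 19.9 RPKM) and G6pc (121 ± 71.3) came next, then Gckr (77.4 ± 5.26) and Slc2a2 (68.9 ± 12.3), which overlapped each other. G6pc, at 59.5 to 214 RPKM, overlapped Pcx, Pklr, Gckr and Slc2a2. Pfkfb1 stood at 30.5 ± 6.13 RPKM and Ppargc1a, at 0.662 ± 0.499 RPKM, below all others. In Bcl6LKOFxrKO livers Fbp1 led the order at 688 ± 63.0 RPKM, and its lowest liver (628) lay above the highest for Pck1 (492), which averaged 329 ± 113 RPKM (SD, n = 4).

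Pck1 encodes the cytosolic form of PEPCK (phosphoenolpyruvate carboxykinase), which turns oxaloacetate into phosphoenolpyruvate, and is the textbook target of glucagon in the liver. The gene lies on mm10 chr2:173153073-173159253 on the + strand (NM_011044). Its promoter is shown here with that of G6pc, the other hormone-controlled gene of the pathway, and that of Pklr, the glucose-controlled gene, because they bear textbook response elements. RefSeq promoters of GRCm38.p6, the assembly of mm10, were found for all 9 genes, 14 starts in all, and the 250 bases before each start were searched on both strands for 5 motifs. These were the core of the cAMP response element (ACGTCA), a core of the insulin response element bound by FOXO factors (CAAAACA), the carbohydrate response element (the half-sites CACNNG and CNNGTG with 5 bases between them), a BCL6 site (TTCCTAGAA) and the wider STAT-type site that contains it (TTCNNNGAA). Capitals mark the matches, and each sequence is written 5′ to 3′ and ends just before the transcript start:
Pck1, chr2:173152823-173153072, + strand: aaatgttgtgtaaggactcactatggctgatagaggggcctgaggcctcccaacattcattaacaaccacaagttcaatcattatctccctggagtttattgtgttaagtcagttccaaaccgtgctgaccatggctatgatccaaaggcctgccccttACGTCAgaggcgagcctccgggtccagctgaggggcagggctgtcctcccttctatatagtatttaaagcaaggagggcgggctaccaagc
G6pc, chr11:101367466-101367715, + strand: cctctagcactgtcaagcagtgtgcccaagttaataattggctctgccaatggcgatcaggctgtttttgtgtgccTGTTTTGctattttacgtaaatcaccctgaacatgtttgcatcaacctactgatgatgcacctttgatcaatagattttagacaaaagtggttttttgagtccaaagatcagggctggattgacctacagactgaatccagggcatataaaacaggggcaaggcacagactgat
Pklr, start used by the liver form, chr3:89136373-89136622, + strand: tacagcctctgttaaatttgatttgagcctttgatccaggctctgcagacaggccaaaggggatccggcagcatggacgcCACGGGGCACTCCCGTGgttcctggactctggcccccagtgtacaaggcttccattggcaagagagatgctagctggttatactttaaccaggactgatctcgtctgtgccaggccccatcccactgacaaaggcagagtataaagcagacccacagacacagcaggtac
The cAMP response element core of Pck1 begins 91 bases before the start, and 6.47% of all 32851 promoter windows of this length hold that core. The insulin response element core of G6pc begins 174 bases before its start and was held by 5.56% of all windows. The carbohydrate response element of Pklr, CACGGGGCACTCCCGTG, begins 170 bases before the start and was held by 0.387% of windows. Ppargc1a also held a cAMP response element core, 50 bases before a start that lies 13804 bases from that of its counted transcript. Gckr held an insulin response element core (83 bases before its start), while the windows of Fbp1, Pcx, Pfkfb1 and Slc2a2 held none of the 5. No window of the 9 genes held the BCL6 site or the STAT-type site, which 0.347% and 7.02% of all windows hold, and such matches say nothing about binding in these livers.

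Pck1 counts stood at 1420, 2968, 2704 and 3362 CPM in FxrKO livers 1 to 4 and at 735, 603, 1281 and 810 CPM in Bcl6LKOFxrKO livers 1 to 4. The groups did not overlap, although FxrKO liver 1 and Bcl6LKOFxrKO liver 3 came close. Its log2 fold change was -1.61 (standard error, SE, 0.29, edgeR adjusted p = 0.00215), which places Bcl6LKOFxrKO livers at 32.8% of the FxrKO level (95% interval 21.0% to 51.2%). The exact two-sided permutation test over the 70 orderings of the 8 livers gave p = 0.029, the smallest that 4 against 4 livers can give. Pck2, the mitochondrial PEPCK, was far less abundant, at 1.41 ± 0.139 RPKM in FxrKO and 1.87 ± 0.56 RPKM in Bcl6LKOFxrKO livers (SD, n = 4), and was not called (log2 fold change 0.41, edgeR adjusted p = 0.18).

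G6pc encodes the catalytic subunit of glucose-6-phosphatase, the step that releases free glucose (chr11:101367716-101377903, + strand, NM_008061). It was at 134, 315, 481 and 158 CPM in FxrKO livers and at 256, 66.4, 233 and 107 CPM in Bcl6LKOFxrKO livers. The groups overlapped between 134 and 256 CPM, with the lowest value in a Bcl6LKOFxrKO and the highest in an FxrKO liver. The log2 fold change of -0.71 had an SE of 0.57 and was not called (edgeR adjusted p = 0.39, exact permutation p = 0.29). Its 95% interval, from -2.05 to 0.62, includes a fall as large as that of Pck1, so neither a large fall nor a rise was excluded at this spread. Slc37a4, the transporter that brings glucose-6-phosphate to this enzyme inside the endoplasmic reticulum, fell, from 205 to 260 CPM in FxrKO livers to 68.8 to 119 CPM in Bcl6LKOFxrKO livers (log2 fold change -1.29, SE 0.15, edgeR adjusted p = 4.74e-05).

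Fbp1, fructose-1,6-bisphosphatase (chr13:62864753-62888282, - strand, NM_019395), was the steadiest of the gluconeogenic enzymes between the genotypes. It measured 907, 1009, 1053 and 1100 CPM in FxrKO livers and 923, 1140, 1010 and 972 CPM in Bcl6LKOFxrKO livers, and the groups overlapped throughout. The difference was -0.01 on the log2 scale with a 95% interval of -0.27 to 0.25 (edgeR adjusted p = 0.97, exact permutation p = 0.91), an interval that does not reach the change of Pck1. Pcx, the mitochondrial pyruvate carboxylase that feeds oxaloacetate to PEPCK (chr19:4510472-4621752, + strand, NM_001162946), was at 724, 783, 741 and 763 CPM in FxrKO livers and 595, 635, 645 and 747 CPM in Bcl6LKOFxrKO livers. Of the 4 Bcl6LKOFxrKO livers, 3 lay below all FxrKO livers and liver 4 lay among them. The log2 fold change of -0.20 (SE 0.11) was not called (edgeR adjusted p = 0.20, exact permutation p = 0.086), but limma voom gave -0.27 (adjusted p = 0.033) and total counts alone gave -0.36 (adjusted p = 0.026), so its call depended on the processing.

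Ppargc1a encodes PGC-1α, the coactivator that drives gluconeogenic transcription with HNF4A and FOXO1 during fasting (counted on NR_027710, chr5:51454249-51553921, - strand). It was rare, at 3.54, 1.62, 3.01 and 8.99 CPM in FxrKO livers and 2.72, 1.70, 3.12 and 3.54 CPM in Bcl6LKOFxrKO livers, which correspond to between 13 and 95 counts. All but FxrKO liver 4 lay within the same narrow range. The log2 fold change of -0.64 (SE 0.45, edgeR adjusted p = 0.31, exact permutation p = 0.57) was not called and became 0.02 without FxrKO liver 4.

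**Figure D1:**
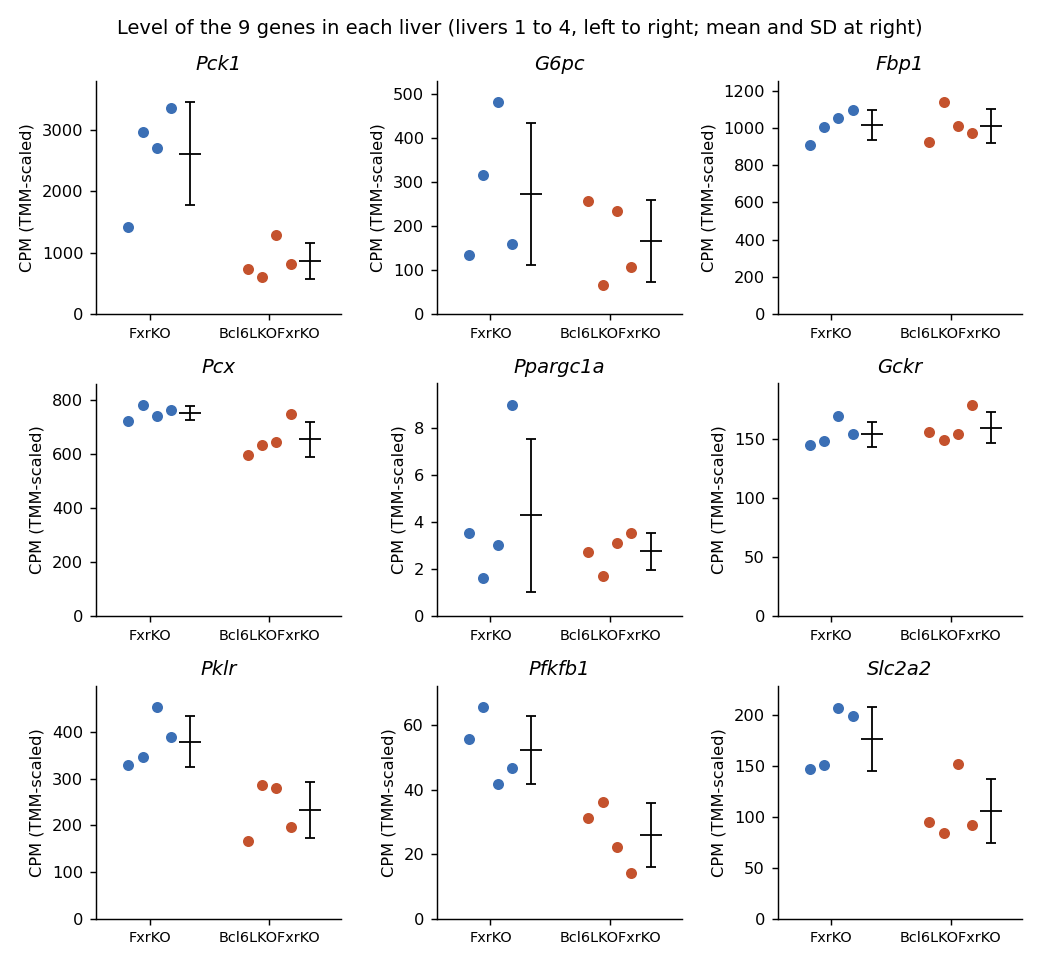
Level of each of the 9 genes in every liver, in TMM-scaled CPM from 0, with FxrKO livers in blue, Bcl6LKOFxrKO livers in red and livers 1 to 4 of each group from left to right, and the bar at the right of each group giving its mean and SD (n = 4). The groups are separate for Pck1, Pklr and Pfkfb1, touch through 1 liver at 152 CPM for Slc2a2, and overlap for the other genes.

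Gckr encodes a regulatory protein of hepatocytes that restrains the entry of glucose into glycolysis when glucose is low (chr5:31297581-31327302, + strand, NM_144909). It varied little, at 145, 148, 169 and 154 CPM in FxrKO livers and 156, 149, 154 and 179 CPM in Bcl6LKOFxrKO livers. The groups overlapped. Its log2 fold change was 0.05 (95% interval -0.18 to 0.28, edgeR adjusted p = 0.76, exact permutation p = 0.51), and its sign turned with total counts alone (-0.11).

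Pklr encodes the liver and red cell pyruvate kinase, the last step of glycolysis, and the liver form starts downstream of the red cell form (chr3:89136142-89146594, + strand, counted on NM_013631). It was at 329, 346, 453 and 389 CPM in FxrKO livers and at 167, 287, 281 and 197 CPM in Bcl6LKOFxrKO livers. All Bcl6LKOFxrKO livers lay below all FxrKO livers. Pklr fell by 0.70 on the log2 scale (SE 0.18, edgeR adjusted p = 0.0099), to 61.5% of the FxrKO level (95% interval 47.1% to 80.1%), with an exact permutation p of 0.029. Of the 3236 exonic bases of Pklr in GENCODE M21, 711 are shared with Hcn3 on the opposite strand, and no strand is named for the counting. Hcn3, a channel gene, was counted at 31.3 ± 12.1 CPM in FxrKO and 14.8 ± 7.59 CPM in Bcl6LKOFxrKO livers (SD, n = 4), an order of magnitude below Pklr, and its part in the Pklr counts was not tested. Mlxipl, the gene of ChREBP, fell from 279 to 437 CPM in FxrKO livers to 143 to 219 CPM in Bcl6LKOFxrKO livers (log2 fold change -1.08, SE 0.17, edgeR adjusted p = 0.00049).

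Pfkfb1 encodes the liver form of the bifunctional enzyme that makes and removes fructose-2,6-bisphosphate, the signal that speeds phosphofructokinase and slows fructose-1,6-bisphosphatase (chrX:150589921-150643878, + strand, NM_008824). It was at 55.8, 65.7, 41.7 and 46.8 CPM in FxrKO livers and at 31.3, 36.3, 22.2 and 14.1 CPM in Bcl6LKOFxrKO livers. The groups were separate, with FxrKO liver 3 and Bcl6LKOFxrKO liver 2 nearest to each other. Pfkfb1 fell by 1.02 on the log2 scale (SE 0.26, edgeR adjusted p = 0.014), to 49.3% of the FxrKO level (95% interval 33.0% to 73.6%), with an exact permutation p of 0.029. Of its 4017 exonic bases, 123 are shared with Apex2 on the opposite strand, a DNA repair gene that was itself lower (11.7 ± 1.12 CPM in FxrKO and 5.46 ± 1.92 CPM in Bcl6LKOFxrKO livers, SD, n = 4), and its part in the Pfkfb1 counts was not tested. No other of the 9 genes shared exonic bases with a neighbour. The exonic bases exceed the lengths of the counted transcripts, 1723 bases for Pfkfb1 and 2774 for Pklr. Whether the shared bases lie within those transcripts was not checked.

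Slc2a2 encodes GLUT2, the low-affinity transporter through which hepatocytes take up and release glucose (chr3:28697903-28728360, + strand, NM_031197). It was at 147, 151, 207 and 199 CPM in FxrKO livers and at 95.3, 84.2, 152 and 91.7 CPM in Bcl6LKOFxrKO livers. Bcl6LKOFxrKO liver 3 lay above the lowest FxrKO livers, and the other 3 lay below them all. Slc2a2 fell by 0.73 on the log2 scale (SE 0.19, edgeR adjusted p = 0.012), to 60.1% of the FxrKO level (95% interval 45.3% to 79.9%), while the exact permutation test gave p = 0.086. Without Bcl6LKOFxrKO liver 4 its log2 fold change was -0.67 and the call was lost (edgeR adjusted p = 0.059). Slc2a1, the transporter GLUT1 of many cell types, was not called, at 11.8 ± 1.84 CPM in FxrKO and 11.1 ± 1.88 CPM in Bcl6LKOFxrKO livers (SD, n = 4).

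**Figure D2:**
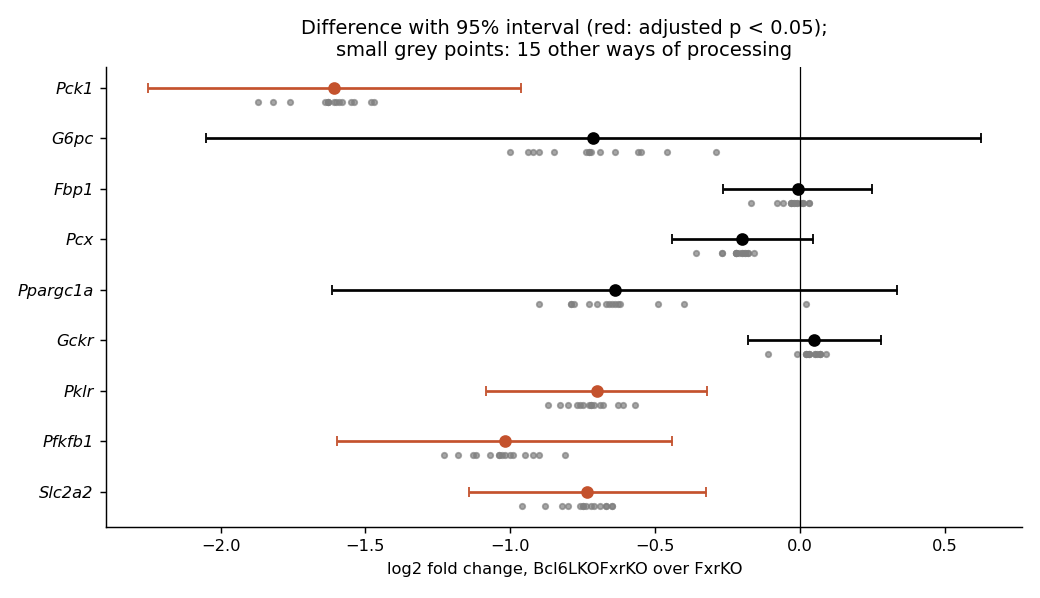
Log2 fold change of each gene, Bcl6LKOFxrKO over FxrKO livers, with its 95% interval derived from the edgeR test. Red marks an adjusted p under 0.05, and grey points below each gene give the values from the 15 other ways of processing. Pck1, Pklr, Pfkfb1 and Slc2a2 stay below 0 under all 15, and the interval of G6pc, from -2.05 to 0.62, is the widest.

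The genes differed in how far livers of 1 genotype lay apart. Among the 7637 tested genes with a mean of at least 10 CPM, the highest liver of a group exceeded the lowest by a median of 1.26 times in FxrKO and 1.40 times in Bcl6LKOFxrKO livers. G6pc spread over 3.59 times in FxrKO and 3.86 times in Bcl6LKOFxrKO livers, more than 99.0% and 99.2% of those genes. Pck1 spread over 2.37 and 2.12 times, above 97.1% and 94.0%. Fbp1 (1.21 and 1.23 times), Pcx (1.08 and 1.26) and Gckr (1.16 and 1.20) were at or below the median in both genotypes. Pfkfb1 spread over 1.58 times in FxrKO and 2.58 times in Bcl6LKOFxrKO livers, above 86.7% and 97.5% of those genes.

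Ratios taken within a liver do not depend on how libraries were scaled. The ratio of Pck1 to Pck2 in RPKM was 370, 754, 862 and 890 in FxrKO livers and 179, 147, 306 and 115 in Bcl6LKOFxrKO livers, with no overlap. The ratio of the liver pyruvate kinase Pklr to Pkm, the form of muscle and most other cells, was 12.9, 15.4, 32.2 and 19.7 in FxrKO livers and 4.75, 7.52, 7.90 and 3.54 in Bcl6LKOFxrKO livers, again without overlap. In the latter ratio both terms moved, since Pkm rose from 12.3 to 22.2 CPM in FxrKO livers to 30.7 to 48.5 CPM in Bcl6LKOFxrKO livers (log2 fold change 1.01, SE 0.20, edgeR adjusted p = 0.0020).

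The ratio of Pck1 to Pklr, the opposing steps between phosphoenolpyruvate and pyruvate, ranged from 4.6 to 9.21 in FxrKO and from 2.24 to 4.87 in Bcl6LKOFxrKO livers and overlapped through FxrKO liver 1. Fbp1 to Pfkl, the liver phosphofructokinase, ranged from 52.9 to 76.1 and from 34.9 to 58.2. Slc2a2 to Slc2a1 ranged from 10.9 to 18.8 in FxrKO livers and from 7.96 to 11.3 in Bcl6LKOFxrKO livers, touching through 1 liver of each group. Pfkl itself was not called (log2 fold change 0.34, edgeR adjusted p = 0.11).

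**Figure D3:**
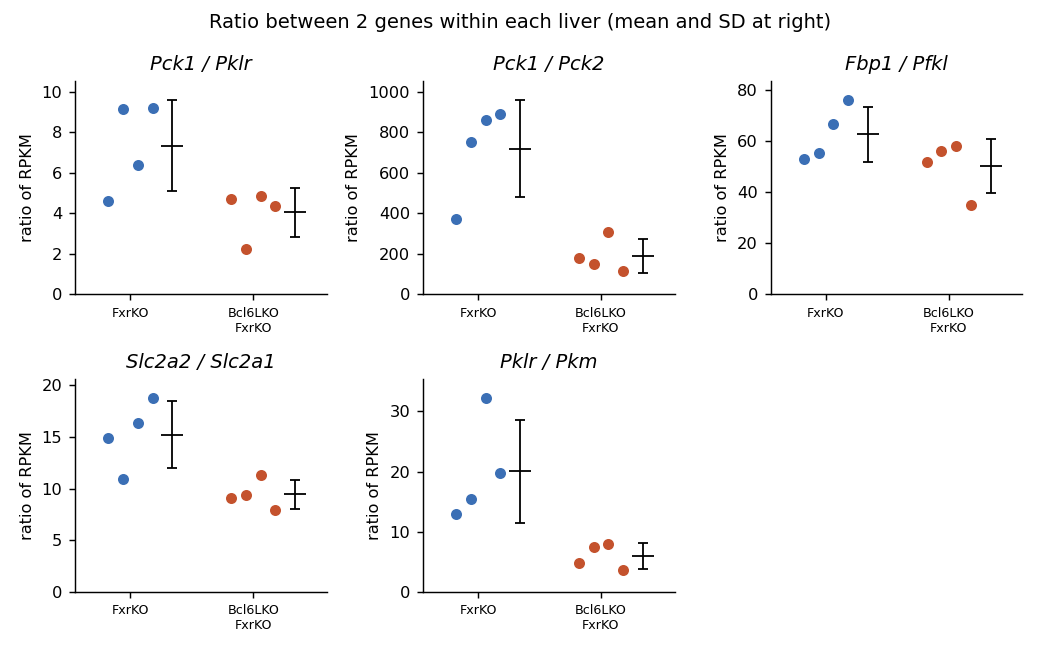
Ratio of the RPKM of 2 genes within each liver, from 0, with FxrKO livers in blue, Bcl6LKOFxrKO livers in red and the mean and SD (n = 4) at the right of each group. The groups are separate for Pck1 to Pck2 and for Pklr to Pkm and overlap for the other 3 ratios.

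Among the other enzymes of the pathway, 27 of 30 were tested, of which 8 were higher and 4 lower, and their median log2 fold change was 0.30. With total counts alone the split was 4 higher and 8 lower. The lower ones with the smallest adjusted p were Slc37a4, Ldha and Pfkfb3. Ldha, the lactate dehydrogenase subunit of glycolytic tissues, was at 754 ± 86.3 CPM in FxrKO and 414 ± 90.3 CPM in Bcl6LKOFxrKO livers (SD, n = 4, log2 fold change -0.86, edgeR adjusted p = 0.0014). Pfkfb3, another bifunctional enzyme, fell by 2.13 on the log2 scale (edgeR adjusted p = 0.040), with overlapping groups and a call that was lost under 6 of the 15 alternatives, 5 of which leave out a liver.

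The higher ones with the smallest adjusted p were Hkdc1, Pkm and Hk1, a hexokinase-like, a pyruvate kinase and a hexokinase gene that adult hepatocytes use little. Hkdc1 was at 0 to 0.378 CPM in FxrKO and 1.33 to 4.09 CPM in Bcl6LKOFxrKO livers, and Hk1 at 3.75 to 3.95 CPM and 5.26 to 8.56 CPM. Per length, Hk1 stood at 1.68 ± 0.326 RPKM in Bcl6LKOFxrKO livers (SD, n = 4). The more abundant Gpi1, of a step shared by both directions, was also called higher without overlap (184 ± 7.84 CPM in FxrKO and 256 ± 41 CPM in Bcl6LKOFxrKO livers, SD, n = 4, edgeR adjusted p = 0.012). Ldhb, another lactate dehydrogenase subunit, was rare and called higher with overlapping groups (1.46 ± 0.584 and 4.01 ± 1.58 CPM, log2 fold change 1.49, edgeR adjusted p = 0.0086). Reads were kept only where they mapped to 1 location. Genes with many near-identical copies in the genome, Ldha and Gapdh among them, can therefore be undercounted, and the degree was not tested.

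**Figure D4:**
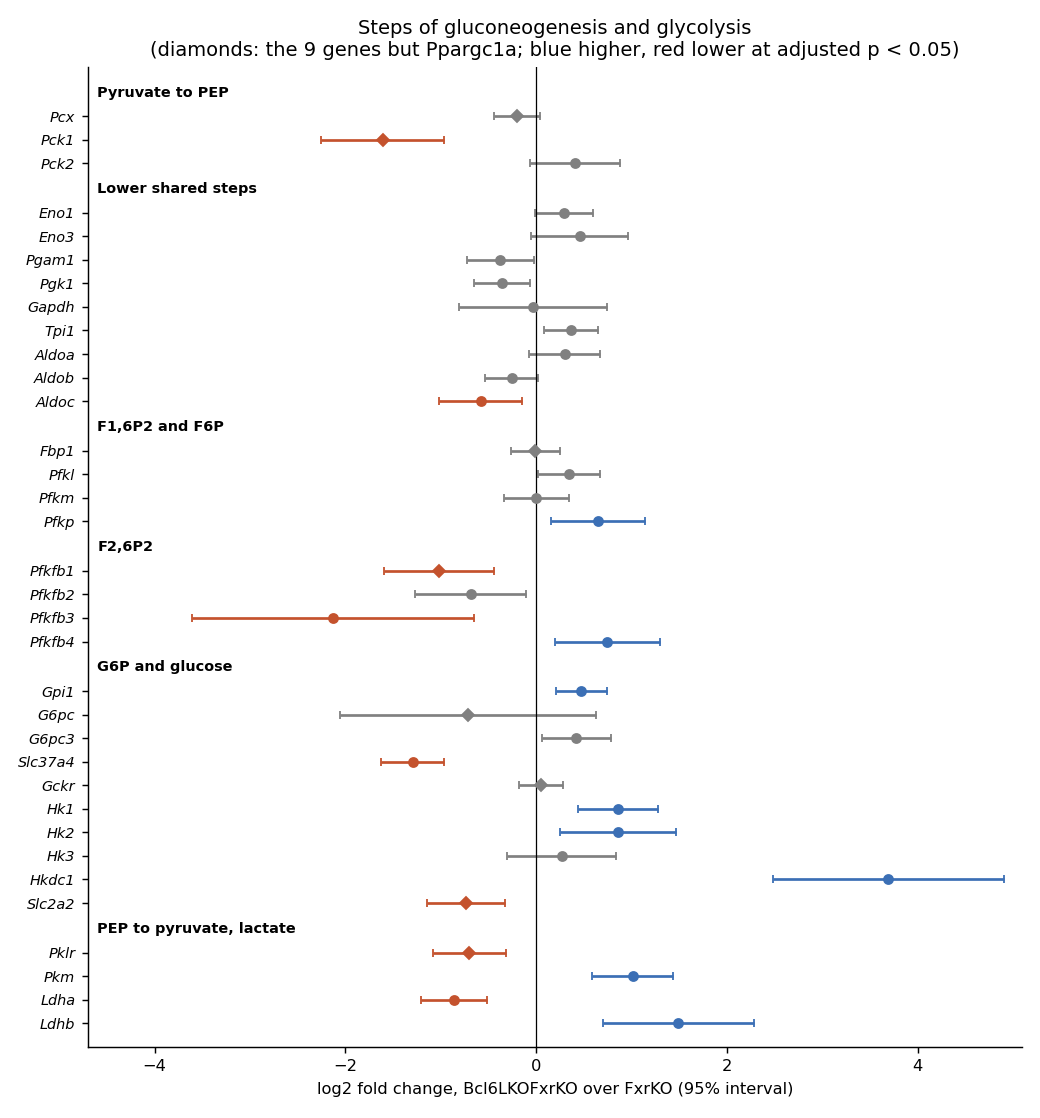
Log2 fold change (Bcl6LKOFxrKO over FxrKO) with 95% interval derived from the edgeR test, for tested genes of gluconeogenesis and glycolysis grouped by step. Genes followed here are diamonds and the other enzymes circles, red for lower and blue for higher at an adjusted p under 0.05. Pck1, Pfkfb1, Slc37a4, Slc2a2, Pklr and Ldha lie below 0. Hkdc1 (at most 0.378 CPM in FxrKO livers), Pkm, Gpi1 and Ldhb lie above it. Pcx, Fbp1, G6pc and Gckr are not called.

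Genes that bring substrate into the pathway or decide the fate of pyruvate fell more often than they rose: of 36 listed, 34 were tested, 17 of them lower and 3 higher (median log2 fold change -0.41). Slc25a13, the mitochondrial aspartate and glutamate carrier (255 ± 27.9 CPM in FxrKO and 148 ± 15.6 CPM in Bcl6LKOFxrKO livers, SD, n = 4), and the pyruvate dehydrogenase subunits Pdha1 (156 ± 8.79 and 98.3 ± 7.78 CPM) and Pdhb (108 ± 7.90 and 67.0 ± 6.20 CPM) had the smallest adjusted p among those that fell. Pdk4, a kinase that switches pyruvate dehydrogenase off, rose from 4.07 to 7.08 CPM in FxrKO livers to 7.89 to 39.4 CPM in Bcl6LKOFxrKO livers (log2 fold change 2.25, edgeR adjusted p = 0.0052). Of the more abundant kinase genes, Pdk1 was called lower with overlapping groups (89.9 ± 22.2 and 55.8 ± 13.6 CPM, edgeR adjusted p = 0.020). Pdk2 was not called (157 ± 17 and 143 ± 13.4 CPM). Pdp1, a phosphatase that switches pyruvate dehydrogenase on, also rose (0.882 ± 0.347 and 2.99 ± 1.12 CPM), while the more abundant Pdp2 was not called (20.5 ± 5.44 and 18 ± 6.85 CPM). The lactate and pyruvate carrier Slc16a7 was called higher at 0.48 on the log2 scale (edgeR adjusted p = 0.039), a call lost under 7 of the 15 alternatives.

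Of the 13 genes of fructose and polyol handling, 4 were higher and 4 lower, and their median log2 fold change was 0.27. Khk, the ketohexokinase that commits fructose to the liver's pathway (325 ± 25.4 CPM in FxrKO and 167 ± 34.7 CPM in Bcl6LKOFxrKO livers, SD, n = 4), Glyctk (258 ± 27.5 and 148 ± 27.0 CPM) and the fructose transporter Slc2a5 (6.52 ± 3.35 and 1.52 ± 0.401 CPM) fell. The aldehyde dehydrogenase Aldh1b1 rose from 86.8 ± 3.54 to 405 ± 71.9 CPM (log2 fold change 2.22, edgeR adjusted p = 1.19e-07), and the pentose phosphate genes Pgd (54.8 ± 8.73 and 115 ± 10 CPM) and Taldo1 (113 ± 8.20 and 163 ± 32.4 CPM) rose, though Taldo1 was not called with total counts alone (adjusted p = 0.059). Slc2a5 was the only one called of the 6 tested among 12 other glucose transporter genes, with 0 higher by edgeR (1 at an unadjusted p under 0.05) and DESeq2 and 1 by limma voom.

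Regulators of gluconeogenic transcription showed 13 lower and 1 higher of 46 tested (48 listed, median log2 fold change -0.35), and 27 lower with total counts alone and 21 with limma voom. The list mixes activators and repressors, and the 13 include Nr1h4, the gene targeted in both groups. Foxo1, through which insulin acts on Pck1 and G6pc, was at 30.7, 31.9, 30.1 and 55.0 CPM in FxrKO livers and 22.8, 26.3, 22.3 and 17.8 CPM in Bcl6LKOFxrKO livers. The groups were separate (log2 fold change -0.73, SE 0.20, edgeR adjusted p = 0.016), and the call was lost without Bcl6LKOFxrKO liver 4 (adjusted p = 0.061). Foxa1, a pioneer factor of the liver (16.5 ± 3.66 and 5.37 ± 2.21 CPM, SD, n = 4), and Klf15, which supports amino acid use for gluconeogenesis (182 ± 28.6 and 97.3 ± 11.8 CPM), also fell. Nr0b2, the gene of SHP, a repressor induced by FXR, fell from 7.95 to 16.6 CPM in FxrKO livers to 0.454 to 1.33 CPM in Bcl6LKOFxrKO livers (log2 fold change -3.85, SE 0.34, edgeR adjusted p = 4.14e-06). Id1, an inhibitor of basic helix-loop-helix factors, was the gene that rose (3.09 ± 1.41 and 20.1 ± 5.51 CPM).

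Among 29 genes that carry the glucagon and insulin signals, all tested, 3 were higher and 5 lower (median log2 fold change -0.09), beside 16.2% and 13.5% over all tested genes. The insulin receptor Insr (105 ± 12.9 CPM in FxrKO and 71.1 ± 9.37 CPM in Bcl6LKOFxrKO livers, SD, n = 4), the adenylate cyclase Adcy9 (32.7 ± 5.90 and 18.1 ± 5.41 CPM) and the phosphoinositide 3-kinase subunit Pik3r1 (58.5 ± 14 and 36.4 ± 6.45 CPM) fell. Prkaca, a catalytic subunit of protein kinase A, rose (64.1 ± 5.98 and 91.7 ± 11.7 CPM), while Prkacb, another, was not called (43.4 ± 5.15 and 38.4 ± 4.89 CPM). Irs2, an adaptor of the insulin receptor, was called higher with overlapping groups, at 1.35 on the log2 scale (edgeR adjusted p = 0.038), a call lost under 7 of the 15 alternatives. Irs1, another adaptor, was called lower with separate groups (20.1 ± 2.91 and 14.2 ± 1.72 CPM, log2 fold change -0.50, edgeR adjusted p = 0.022).

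Genes of the carbohydrate response, a list of its factors and of their targets, did not move as 1 group. Of 21 tested, 3 were higher and 6 lower (median log2 fold change -0.12). Many of the targets share ChREBP as a regulator with Pklr. Scd1, the stearoyl-CoA desaturase, fell from 7678 ± 1999 to 2737 ± 428 CPM (SD, n = 4), along with Khk and Mlxipl. Arrdc4 (11.3 ± 1.27 and 18.3 ± 4.11 CPM), Pnpla3 (4.12 ± 1.89 and 19.6 ± 12.5 CPM) and Thrsp (137 ± 30.6 and 206 ± 34.2 CPM) rose, though Thrsp was not called under 3 of the 15 alternatives (total counts alone, and without FxrKO liver 1 or 2).

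Because Pck1 and G6pc follow meals and the hour of day, genes of both responses were counted beside them. Of 27 fasting-responsive liver genes, 7 were higher and 5 lower (median log2 fold change 0.26). Fgf21, the fasting hormone of the liver, was at 0 to 0.728 CPM in FxrKO and 1.56 to 3.63 CPM in Bcl6LKOFxrKO livers, and Acot2 (4.16 ± 1.20 and 15.4 ± 6.90 CPM, SD, n = 4) and the stress gene Gadd45b (2.66 ± 1.51 and 10.6 ± 1.35 CPM) rose. Cpt1a, which admits fatty acids to mitochondria (544 ± 121 and 294 ± 43.6 CPM), and the leucine zipper gene Tsc22d3 (138 ± 74.2 and 36.6 ± 8.41 CPM) fell. Of 18 clock genes tested, 2 were lower, Hlf (51.9 ± 11.9 and 18.3 ± 4.26 CPM) and Per2 (28.2 ± 15 and 9.47 ± 4.70 CPM), and 0 were higher (also 0 at an unadjusted edgeR p under 0.05, with DESeq2 and with limma voom), and Per2 was not called under 6 of the 15 alternatives. The part of feeding state or hour in the values of Pck1 and the others was not tested.

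Gluconeogenesis is a task of hepatocytes near the portal vein. Of 19 periportal genes, 3 were lower and 1 higher (median log2 fold change -0.30), and of 19 pericentral genes tested 2 were lower and 4 higher (median -0.19). The shares over all tested genes were 13.5% lower and 16.2% higher. With total counts alone 8 periportal genes were lower, and 4 pericentral genes were lower and 3 higher. Cyp2f2, a periportal cytochrome, fell from 1255 ± 291 to 437 ± 152 CPM (SD, n = 4) and Cyp2e1, a pericentral one, from 10677 ± 1730 to 2819 ± 575 CPM. Apoa4 on the periportal side (362 ± 55.5 and 1348 ± 536 CPM), and Slc22a3 (3.70 ± 0.728 and 17.3 ± 5.57 CPM), Slc1a2 (221 ± 41.4 and 708 ± 186 CPM) and Rhbg (31.6 ± 4.12 and 65.2 ± 20.9 CPM) on the pericentral side, rose. Pigr (log2 fold change -0.69, edgeR adjusted p = 0.021), Hsd17b13 (-0.34, adjusted p = 0.029) and Cyp2c29 (-0.36, adjusted p = 0.038) were called lower but not under 4, 5 and 6 of the 15 alternatives, each of which leaves out a liver.

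Markers of other liver cells were also higher in part in Bcl6LKOFxrKO livers beside the falls of Pck1, Pklr, Pfkfb1 and Slc2a2. The share called higher over all tested genes was 16.2%. The 10 markers of stellate cells and fibroblasts summed to 231 to 327 CPM in FxrKO and 468 to 586 CPM in Bcl6LKOFxrKO livers, with 7 of 10 called higher. Those of cholangiocytes summed to 120 to 187 and 187 to 293 CPM (3 of 7 tested higher), of endothelial cells to 207 to 281 and 291 to 369 CPM (3 of 10 higher), and of macrophages and monocytes to 376 to 540 and 507 to 822 CPM (3 of 10 tested higher). T and B cell markers were near 0, at 3 to 5.27 and 4.73 to 9.99 CPM in sum, and none passed the filter. Hepatocyte markers, dominated by Alb, summed to 64392 to 75745 CPM in FxrKO and 159527 to 179983 CPM in Bcl6LKOFxrKO livers, with 4 of 9 tested higher and 1 lower. No list had a marker at 0 in every liver. The part of cell composition in the values of the 9 genes was not tested.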

How the data were processed

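RNA was sequenced from 4 FxrKO and 4 Bcl6LKOFxrKO livers, grouped by genotype as labelled. The authors aligned 100-base single-end reads of stranded libraries to mm10 with STAR 2.5.2 and deposited a table of raw exonic read counts for every gene, made with HOMER 4.10 from 1 transcript a gene, together with its length, which is the other deposited quantity used here. The methods name DESeq2 for differential expression. Counts were analysed with edgeR 4.0.16 in R 4.3.3 (filterByExpr, TMM, robust quasi-likelihood test, Benjamini-Hochberg over 12340 genes, adjusted p under 0.05), and CPM, RPKM and exact two-sided permutation tests on log2 CPM (prior count 2) were computed from them. The fit was tested on simulated data. Depth was 7586241 to 11839503 counts per liver, and low genes are imprecise. No pair of livers of a genotype agreed within sampling noise (chi-square per degree of freedom 10.03 to 45.83).

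Alternatives were RLE size factors, total counts alone, scaling without the 50 most counted genes, DESeq2 1.42.0, limma 3.58.1 voom with quality weights, no expression filter, a minimum of 10 counts in each of the livers, leaving out 1 liver at a time, and a log2 fold change above 0.5 in the call. The 9 genes and the 11 gene lists were chosen with earlier results of these data known. Named beside them were the 2 targeted genes, Nr0b2, Pck2, Slc37a4, Pkm, Pfkl, Mlxipl, Foxo1, the genes of the ratios, and from each list up to 3 called genes in each direction with the smallest adjusted p. Some genes and ratios that this rule gives are not reported here. Hcn3 and Apex2 were named after their overlap was seen, and Alb, Hnf4a, and Gapdh as background. Pdk1, Pdk2, Pdp2, Irs1, Prkacb and Ldhb were added as relatives of genes that the rule named, and Gpi1 as a more abundant enzyme called higher. Livers are numbered within a genotype in the order of their records.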

Additional observations from a re-analysis of the deposited data

Results flagged for a closer look

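In 48 groups of 4 livers (the 9 genes, the other genes always named and the 5 ratios, each in both genotypes), the gap between the extreme liver and its neighbour was compared with the range of the group, and 5 shares were above the critical value of Dixon's test for 4 values. Chance alone flags about 1 group in 20, or 2.4 of 48. Among the 9 genes only Slc2a2 was flagged: Bcl6LKOFxrKO liver 3 was at 152 CPM and the other 3 at 84.2 to 95.3 CPM, a gap of 0.838 of the range. Pck2 in Bcl6LKOFxrKO liver 4 was at 9.17 CPM beside 5.34 to 5.45 CPM (0.970 of the range). Pkm in the same liver was at 48.5 CPM beside 30.7 to 33.3 CPM (0.858). Mlxipl in Bcl6LKOFxrKO liver 2 was at 219 CPM beside 143 to 152 CPM (0.875). Foxo1 in FxrKO liver 4 was at 55.0 CPM beside 30.1 to 31.9 CPM (0.929), the same liver in which Ppargc1a stood at 8.99 CPM.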

How the results depend on the processing

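Pck1, Pklr and Pfkfb1 were called lower under all 15 alternatives, at log2 fold changes of -1.87 to -1.47, -0.87 to -0.57 and -1.23 to -0.81, and Slc2a2 under 14 (-0.96 to -0.65). With a liver left out, Slc2a2 ranged from -0.96 to -0.65 and lost its call without Bcl6LKOFxrKO liver 4 (-0.67). Pcx was called with total counts alone (-0.36) and with limma voom (-0.27). Signs turned for genes near 0: Fbp1 under the minimum of 10 counts (0.01) and with a liver left out (-0.08 to 0.03), Gckr with total counts alone (-0.11) and with a liver left out (-0.01 to 0.09), and Slc2a1 with a liver left out (-0.18 to 0.01). The sign of Ppargc1a, at -0.64 in the main fit, also turned with a liver left out (-0.90 to 0.02), when FxrKO liver 4 was the one removed. Total counts alone called 2949 genes lower in place of 1665 and 27 of the regulators lower in place of 13, 8 in place of 3 periportal genes, 9 in place of 5 signal genes, 5 in place of 2 clock genes, 4 in place of 2 pericentral genes and 3 in place of 1 transporter gene. It called 4 enzyme genes higher and 8 lower in place of 8 and 4, and 1 signal gene higher in place of 3, as no filter did. Limma voom called 21 regulators, 8 fasting genes in place of 5, 2 transporter genes and 5 periportal genes lower, the last as DESeq2 did, and 5 signal genes higher. With no filter 2 transporter genes and 1 clock gene were lower and 2 regulators higher in place of 1, the last as with DESeq2, and 1 transporter gene in place of 0 was higher with limma voom and under the minimum of 10 counts. With a liver left out, 33 further counts of the lists moved by over 1.5 times. The cause was not tested. Calls of 10 other genes named by the rule were lost under at least 1 alternative. No paired analysis was possible because the labels give no pairs. Depth limits Ppargc1a, at 13 to 95 counts.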
